A study of Rattus norvegicus and Mus musculus with 24 samples.

Results

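Transcription factors that set or mark the identity of kidney epithelial cells were followed in kidneys of mice and rats that lack the lysosomal cystine transporter Ctns. The 7 factors are HNF4A, PAX2, PAX8, SOX9, SOX4, MAF and NR1H4, chosen by name, so that 7 of the 17376 symbols in the mouse table and 6 of the 14931 symbols in the rat table were members. SOX4 was measured in mice and was not analysed here in rats. In rats with the numbers 25 to 32, HNF4A fell by 1.10, MAF by 0.90 and NR1H4 by 0.69 on the log2 scale in KO animals and SOX9 was 1.11 higher. None of the 6 passed by edgeR in rats 17 to 24, where 7.26% of all symbols did, although 4 had an unadjusted p under 0.05. The difference between the ranges itself passed in the edgeR interaction test for HNF4A alone of the 6, against 14.7% of all symbols. It also passed for 5 of 9 other proximal tubule transcription factors and 8 of 18 proximal tubule genes, so it was not particular to HNF4A. In mice SOX9 and SOX4 were higher in KO kidneys, and HNF4A was lower by a smaller amount whose call depended on the test.

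The proximal tubule reabsorbs most of what the glomerulus filters, and its mature state is held by a set of nuclear receptors and partner factors. HNF4A is a nuclear receptor that switches on transporter and metabolic genes of this segment, MAF is a basic leucine zipper factor of the large Maf family, and NR1H4 (the farnesoid X receptor) is a bile acid sensor. PAX2 and PAX8 are paired-box factors that specify the kidney lineage in the embryo and stay on in parts of the adult nephron. SOX9 and SOX4 belong to the SRY-box family, and SOX9 is known to come on in tubule cells that have been injured and are repairing.

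RNA was sequenced from 4 Ctns KO and 4 WT mice on a C57BL/6 background and from 8 Ctns KO and 8 WT rats on a Sprague-Dawley background, the WT animals being littermates. The sources name no tissue-specific driver for the deletion in either line, and the labels give kidney cortex and proximal tubule cells for all 24 libraries. The sources differ on the material, with microdissected proximal tubules in the labels' protocol and cortex in the study's methods. The rats fall into numbers 17 to 24 and 25 to 32, with 4 KO and 4 WT animals in each. The labels do not say what the ranges stand for, and the age, sex and any treatment of the sequenced rats are not given in the sources used here, so a range cannot be told apart from whatever differed between them. The study describes its mice as female and of more than 1 age, without giving the age of the sequenced ones in its methods. Genotypes were compared over all rats and within each range.

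Mouse values are reads divided by the library's own upper quartile, so that the symbol at the 75th percentile has a scaled value of 1, and rat values are given as CPM, reads per library total after TMM scaling between libraries (TMM-scaled CPM). Libraries held 19309371 to 44449845 reads in mice and 24684097 to 40629873 in rats. Ctns itself was 0.332 ± 0.010 scaled units in KO mice against 0.918 ± 0.087 in WT mice (SD, n = 4 each), without overlap. In rats Ctns was 19.1 ± 1.86 TMM-scaled CPM in KO and 22.3 ± 2.98 in WT animals (SD, n = 8 each) and the groups overlapped, so the Ctns level does not check the rat labels. Proximal tubule genes were the most abundant of the cell type lists, but markers of thick limb, collecting duct, podocytes, endothelium, macrophages and fibroblasts all had reads in each group, so the material was not proximal tubule alone. In such bulk samples fewer cells of a type and less RNA per cell cannot be told apart.

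Because HNF4A changed most among the 3 factors that fell, its promoters are shown. RefSeq places 2 starts of the rat gene 35616 bases apart on the plus strand of chromosome 3 (GRCr8), and each line gives 250 bases before and 50 after the start, 5′ to 3′. Capitals mark a CCAAT box (CCAAT) and a GC box (GGGCGG), common elements of promoters, on either strand.
Hnf4a upstream start, chr3:172605970-172606269: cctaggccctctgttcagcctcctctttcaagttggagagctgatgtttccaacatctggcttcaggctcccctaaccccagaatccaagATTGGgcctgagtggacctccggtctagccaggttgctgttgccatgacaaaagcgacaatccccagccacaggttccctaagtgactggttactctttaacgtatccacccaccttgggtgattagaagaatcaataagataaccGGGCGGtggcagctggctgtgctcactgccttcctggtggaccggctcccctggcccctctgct
Hnf4a downstream start, chr3:172641586-172641885: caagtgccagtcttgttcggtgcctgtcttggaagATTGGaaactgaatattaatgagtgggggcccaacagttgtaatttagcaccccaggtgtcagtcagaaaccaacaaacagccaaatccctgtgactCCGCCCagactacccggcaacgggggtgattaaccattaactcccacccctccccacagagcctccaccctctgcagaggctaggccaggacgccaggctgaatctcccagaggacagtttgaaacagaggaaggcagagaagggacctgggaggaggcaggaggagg
Each window held 1 of each box. The upstream CCAAT box began at position -160 from the start and the GC box at -14, and in the downstream window they began at -215 and -118. A CCAAT box was present in 37.5% and a GC box in 33.1% of 33469 rat promoters of the same length, so this describes the letters and not binding. Reads were counted per gene and do not separate the promoters.

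Among the 7 factors in WT mice, levels per kilobase of exon differed widely. HNF4A (chromosome 2, 163506808 to 163572910, mm10) stood first at 4.49 ± 0.43 scaled units per kb (SD, n = 4). NR1H4 followed at 1.02 ± 0.096 and MAF at 0.629 ± 0.17, and the lowest NR1H4 value of 0.895 lay above the highest MAF value of 0.858. PAX8 at 0.260 ± 0.015, PAX2 at 0.146 ± 0.012 and SOX4 at 0.10 ± 0.011 came next, each range clear of its neighbour. SOX9 was last at 0.00898 ± 0.0013. In KO mice SOX4 rose to 0.168 ± 0.0046, above PAX2 at 0.147 ± 0.011, and those ranges did not overlap either, while the other 5 kept their places. Rat reads were not set per length here.

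HNF4A was lower in KO animals in each set. Scaled values in mice were 17.7, 18.4, 15.8 and 18.5 in KO mice 3, 5, 6 and 8 and 20.4, 20.5, 24.7 and 21.2 in WT mice 1, 2, 4 and 7. All 4 KO mice lay below all 4 WT mice. The log2 difference was -0.28 (SE 0.079) with a limma adjusted p of 0.1003 on the log2(value + 1) scale, and -0.32 (SE 0.090) with an edgeR adjusted p of 0.0396 on the reads, so the call depends on the test.

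**Figure D1:**
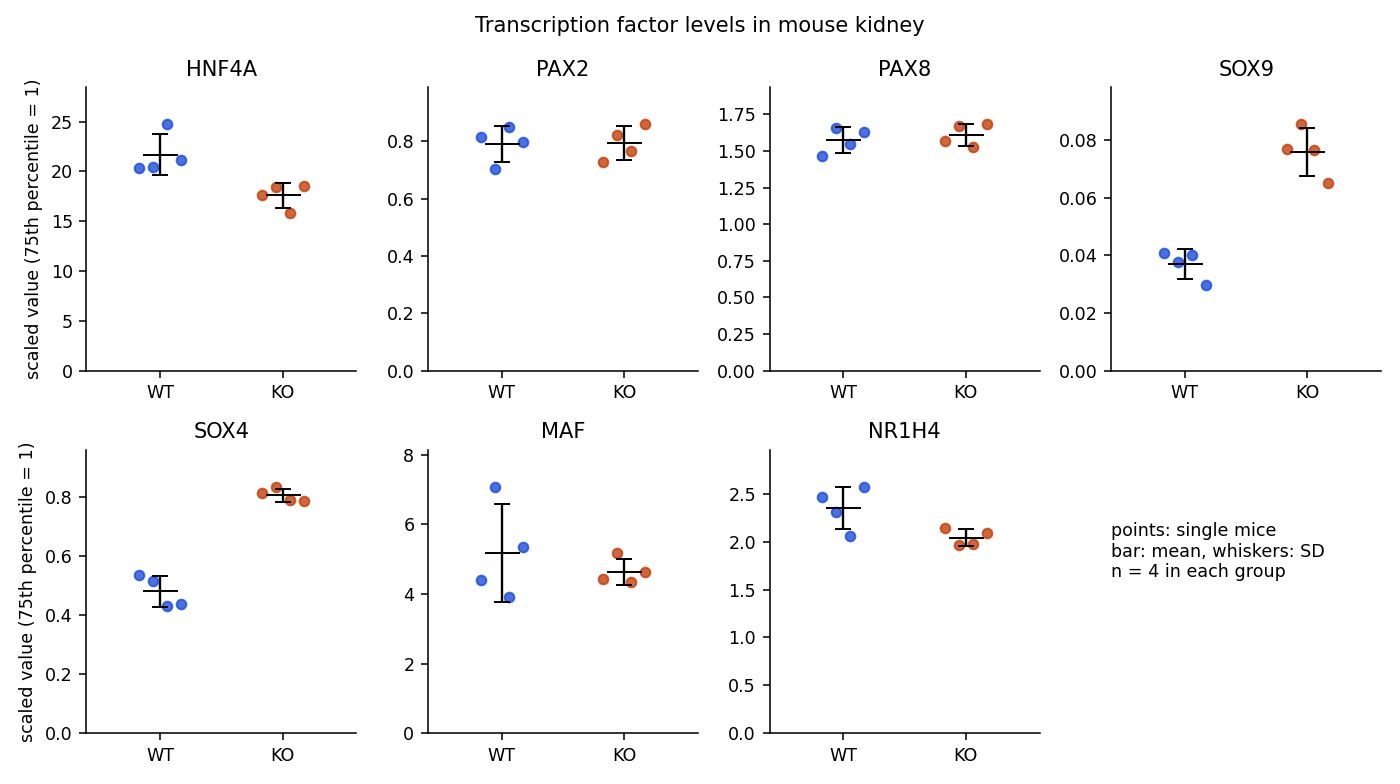
Scaled value of each factor (y axis from 0, 75th percentile of the library = 1) in 4 WT and 4 KO mice, with points for single animals and the mean with SD. KO and WT points are apart for HNF4A, SOX9 and SOX4 and mixed for PAX2, PAX8, MAF and NR1H4.

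Among rats 25 to 32, HNF4A was 207, 160, 176 and 133 TMM-scaled CPM in KO rats 26, 28, 30 and 32 and 344, 426, 365 and 322 in WT rats 25, 27, 29 and 31. The highest KO rat stayed far below the lowest WT rat, at means of 169 ± 30.97 and 364 ± 44.7 (SD, n = 4 each). The edgeR log2 change was -1.10 (SE 0.13, adjusted p = 0.00012). Among rats 17 to 24, HNF4A was 235, 220.4, 252 and 237 in KO rats 18, 20, 22 and 24 and 250.2, 269, 288 and 343 in WT rats 17, 19, 21 and 23. KO rat 22 was above WT rat 17, so these groups overlapped narrowly. The change of -0.28 (SE 0.088) had an adjusted p of 0.0842. HNF4A was the 1 member of 6 whose change differed between the ranges, by -0.82 (SE 0.17, edgeR interaction, adjusted p = 0.00537), against 14.7% of all symbols. WT levels were 364 in the range with the larger change and 288 ± 40.1 (SD, n = 4) in the other, a log2 difference of 0.34 that did not pass (adjusted p = 0.0514). Over all 16 rats the change was -0.69 (SE 0.13, adjusted p = 0.0012).

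MAF moved in the same direction in rats. Its values in rats 25 to 32 were 72.6, 53.0, 63.4 and 45.6 TMM-scaled CPM in KO rats 26, 28, 30 and 32, against 108, 149, 95.5 and 85.2 in WT rats 25, 27, 29 and 31. These did not overlap, although WT rat 27 stood well above its group. The edgeR change was -0.90 (SE 0.19, adjusted p = 0.0030), and it kept its call without rat 27. MAF in rats 17 to 24 was 70.2, 80.4, 75.5 and 76.8 in KO rats 18, 20, 22 and 24 and 74.9, 97.9, 89.0 and 97.0 in WT rats 17, 19, 21 and 23. Of the 4 WT rats 3 were above every KO rat, and the change of -0.24 (SE 0.080) had an adjusted p of 0.103. Over all rats it was -0.57 (SE 0.13, adjusted p = 0.0047), and the ranges differed by -0.66 without passing (adjusted p = 0.0561). In mice MAF was 4.43, 5.17, 4.34 and 4.63 scaled units in KO mice 3, 5, 6 and 8 and 4.39, 7.08, 3.91 and 5.36 in WT mice 1, 2, 4 and 7. The mouse groups were mixed, with WT mouse 2 far above the rest, and the difference was -0.11 (SE 0.15, limma adjusted p = 0.824).

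NR1H4 was 94.4, 88.4, 76.4 and 85.6 TMM-scaled CPM in KO rats 26, 28, 30 and 32 and 113, 152, 142 and 150.0 in WT rats 25, 27, 29 and 31. The groups were apart, and the edgeR change was -0.69 (SE 0.099, adjusted p = 0.00033). NR1H4 in rats 17 to 24 was 85.4, 88.0, 104 and 93.2 in KO rats 18, 20, 22 and 24 and 88.9, 112, 136 and 115 in WT rats 17, 19, 21 and 23. WT rat 17 lay among the KO rats, and the change of -0.28 (SE 0.12) did not pass (adjusted p = 0.202). Over all rats NR1H4 fell by 0.50 on the log2 scale (SE 0.098, adjusted p = 0.0014). In mice it was 2.14, 1.96, 1.97 and 2.09 scaled units in KO mice 3, 5, 6 and 8 and 2.46, 2.31, 2.06 and 2.57 in WT mice 1, 2, 4 and 7. WT mouse 4 fell within the KO values, and the difference of -0.14 (SE 0.050) had a limma adjusted p of 0.1998.

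Genes that the farnesoid X receptor is known to switch on were mixed. SLC51B, a subunit of the basolateral bile acid exporter, was 1.85 to 2.71 TMM-scaled CPM in KO and 3.47 to 5.78 in WT rats of numbers 17 to 24, and 20.5 to 30.3 against 34.4 to 55.1 in rats 25 to 32. It fell in both, by 0.88 (SE 0.20, edgeR adjusted p = 0.0161) and by 0.81 (SE 0.15, adjusted p = 0.0018) on the log2 scale. Pooling the ranges hid this (-0.82, SE 0.74, adjusted p = 0.44), since WT levels differed between the ranges by 3.37 on the log2 scale (SE 0.19, adjusted p = 7.7e-09). Its partner subunit SLC51A, also 1.72 higher in WT rats 25 to 32 than in WT rats 17 to 24 (adjusted p = 1.5e-05), was 0.39 in rats 17 to 24 (adjusted p = 0.196) and -0.38 in rats 25 to 32 (adjusted p = 0.114). NR0B2, the small heterodimer partner, was -0.073 in rats 17 to 24 (SE 0.18, adjusted p = 0.880) and 0.31 in rats 25 to 32 (SE 0.18, adjusted p = 0.189), and its WT level differed by -0.78 between the ranges, the latter being lower (adjusted p = 0.0068). Of 8 listed targets, 1 of 4 tested passed in rats 17 to 24 and 2 of 5 in rats 25 to 32, each lower in KO, where 2.19% and 22.1% of all symbols were lower. In mice 0 of 8 passed by limma and 1 had an unadjusted p under 0.05, against 0 of 5 by edgeR and 1 of 6 by DESeq2 on the reads.

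**Figure D2:**
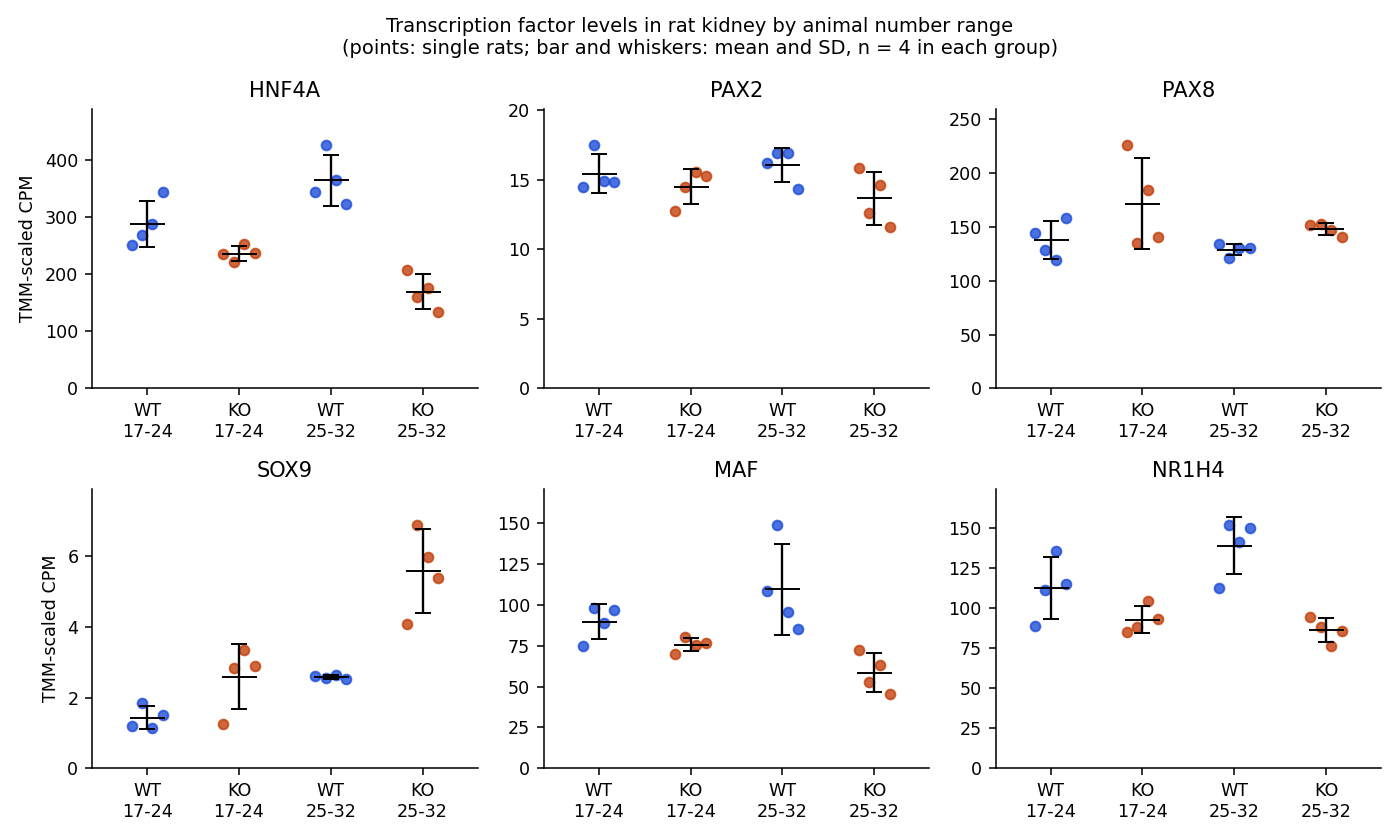
TMM-scaled CPM of the 6 factors in rats (y axis from 0) by genotype and number range, with points for single animals and the mean with SD. In rats 25 to 32 KO points lie below all WT points for HNF4A, MAF and NR1H4 and above them for SOX9 and PAX8, while in rats 17 to 24 every panel overlaps.

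PAX8 and PAX2 moved little. PAX8 was 152, 152, 147 and 141 TMM-scaled CPM in KO rats 26, 28, 30 and 32 and 134, 121, 130.2 and 130.0 in WT rats 25, 27, 29 and 31. These did not overlap, and the rise of 0.20 (SE 0.057, edgeR adjusted p = 0.0156) was the smallest among the 5 members that passed there. PAX8 in rats 17 to 24 was 226, 135, 185 and 141 in KO rats 18, 20, 22 and 24 and 145, 129, 119 and 158 in WT rats 17, 19, 21 and 23. KO rats 18 and 22 were high and the other KO rats were among the WT values, with a change of 0.33 (SE 0.18, adjusted p = 0.363). Over all rats PAX8 was 0.26 higher (SE 0.098, adjusted p = 0.0539), a value at the threshold that passed by DESeq2 (adjusted p = 0.0443), with the range as a covariate (0.0313), and without KO rat 20, 24 or 32 or WT rat 23, where the lowest was 0.0334.

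In mice PAX8 was 1.53 to 1.68 scaled units in KO and 1.46 to 1.66 in WT animals, a difference of 0.021 (limma adjusted p = 0.841) with a 95% interval of -0.054 to 0.096. PAX2 was 0.727 to 0.860 in KO and 0.703 to 0.849 in WT mice, with a difference of 0.0020 (limma adjusted p = 0.978) and an interval of -0.076 to 0.080. Neither factor was separated by genotype in mice. In rats PAX2 ranged from 11.6 to 15.8 TMM-scaled CPM in KO (median 14.5) and from 14.3 to 17.5 in WT animals (median 15.5). The groups overlapped, and the change was -0.16 (SE 0.074, edgeR adjusted p = 0.113), with -0.084 in rats 17 to 24 (adjusted p = 0.674) and -0.23 in rats 25 to 32 (adjusted p = 0.128).

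SOX9 was the rarest of the factors and rose in both species. Scaled values were 0.0768, 0.0855, 0.0766 and 0.0652 in KO mice 3, 5, 6 and 8 and 0.0410, 0.0378, 0.0401 and 0.0296 in WT mice 1, 2, 4 and 7, from 73 to 121 and from 34 to 64 reads. Every KO mouse exceeded every WT mouse, and the mean was 2.05 times the WT mean. On log2(value + 1), which understates the change of a low gene, the difference was 0.053 (SE 0.0064, limma adjusted p = 0.0085), and on the reads it was 1.02 (SE 0.17, edgeR adjusted p = 0.0018). SOX4 was 0.813, 0.834, 0.789 and 0.787 in KO mice 3, 5, 6 and 8 and 0.536, 0.515, 0.432 and 0.437 in WT mice 1, 2, 4 and 7. The KO values were tight (0.806 ± 0.022, SD, n = 4) and clear of the WT values (0.480 ± 0.053, n = 4). The rise was 0.29 (SE 0.026, limma adjusted p = 0.0041), or 0.73 on the reads (SE 0.077, edgeR adjusted p = 5.7e-05).

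Among rats 25 to 32, SOX9 was 4.08, 6.88, 5.99 and 5.38 TMM-scaled CPM in KO rats 26, 28, 30 and 32 and 2.60, 2.56, 2.64 and 2.52 in WT rats 25, 27, 29 and 31. WT rats were nearly alike and all KO rats lay above them, with a change of 1.11 (SE 0.17, edgeR adjusted p = 0.00043). SOX9 in rats 17 to 24 was 1.25, 2.85, 3.35 and 2.90 in KO rats 18, 20, 22 and 24 and 1.21, 1.86, 1.14 and 1.51 in WT rats 17, 19, 21 and 23. KO rat 18 lay within the WT values, from 39 reads, and was the animal with the highest PAX8. The change of 0.85 (SE 0.28, adjusted p = 0.0982) passed when rat 18 was left out (1.08, adjusted p = 0.0082). Over all rats SOX9 was 1.02 higher (SE 0.29, adjusted p = 0.0147). SOX9 was also the 1 member of 6 that differed between WT rats of the ranges, 0.84 higher in 25 to 32 (SE 0.25, adjusted p = 0.0241), where 21.1% of all symbols differed. That call was lost without WT rat 17, 21, 25 or 29, with an adjusted p of up to 0.0731.

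**Figure D3:**
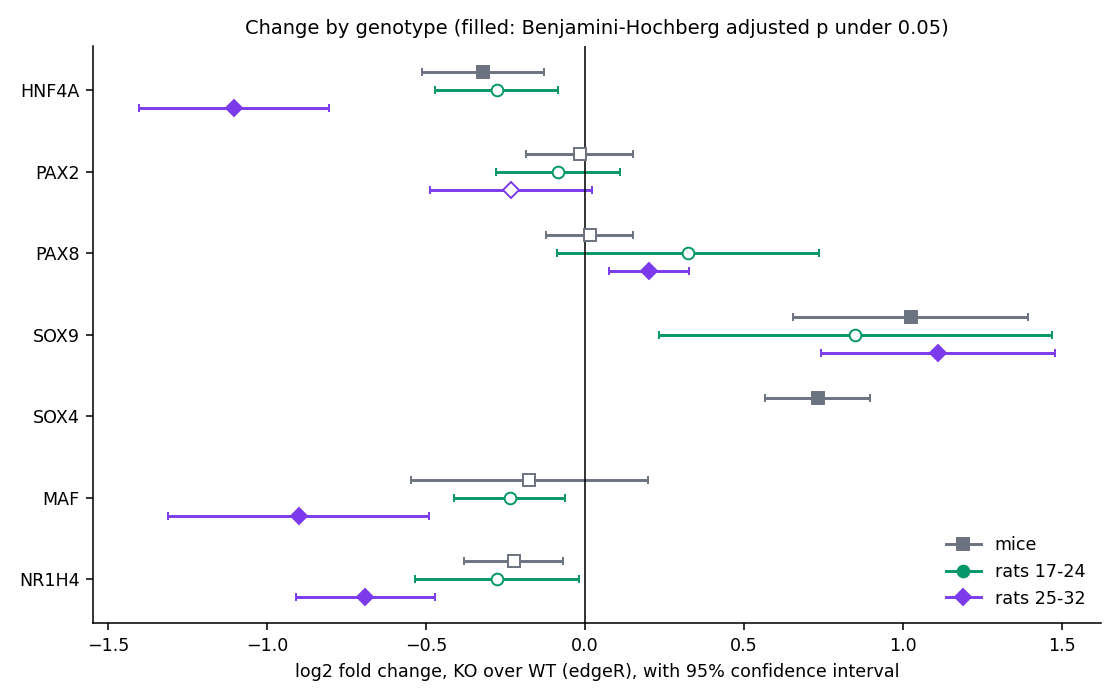
Log2 change of each factor, KO over WT, by edgeR on reads, with the 95% confidence interval, in mice, rats 17 to 24 and rats 25 to 32 (filled where the adjusted p was under 0.05). HNF4A, MAF and NR1H4 lie left of 0 and SOX9 right of 0 in all 3. The intervals for mice and rats 17 to 24 overlap for all 6 shared factors. Those for mice and rats 25 to 32 are apart for HNF4A and NR1H4 and overlap for the others.

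Set against all symbols, 2 of 7 members passed in mice by limma, both higher in KO, where 4.32% of all symbols passed. By edgeR on the reads 3 of 7 did, with HNF4A the added one, against 8.91%. Of the 7, 3 did not overlap between mouse genotypes (HNF4A, SOX9 and SOX4), against 11.6%. Over all rats 4 of 6 passed against 27.5%, and 0 of 6 were free of overlap against 5.84%. In rats 25 to 32, 5 of 6 passed against 43.8%, and the same 5 did not overlap, against 40.3%. In rats 17 to 24, 0 of 6 passed by edgeR against 7.26%, with 4 at an unadjusted p under 0.05 and 2 called by DESeq2, and 0 of 6 were free of overlap against 13.7%. Without WT rat 17, 3 passed there (HNF4A, MAF and NR1H4). Scaling rats by library totals in place of TMM moved the median change of all symbols from -0.010 to 0.152 in rats 25 to 32, and the calls there from 2534 higher and 2566 lower to 4252 higher and 1135 lower. Under it, the same 5 members passed in the same directions. Over all rats the split went from 1760 higher and 1420 lower to 2644 and 687, and 5 members passed, PAX8 being the added one (adjusted p = 0.0135).

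The size of change was compared between the species on 1 scale, after the rat reads had been divided by their own upper quartile too. Rats of both ranges were pooled here, although the HNF4A change differed between the ranges by -0.82. The pooled test therefore cannot show whether mice differed from the rats of either range. By limma 0 of 6 members differed in their change, with 0 at an unadjusted p under 0.05 and 0 by edgeR, against 3.17% of 11216 symbols that passed. The 95% interval of the difference, rats minus mice on the log2(value + 1) scale, was -0.62 to 0.077 for HNF4A and -0.55 to 0.10 for MAF, and both intervals hold 0.

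A further 4 sets of kidney transcription factors, 62 symbols in all, were counted in the same fits. The proximal tubule set stood at a median of -0.70 in rats 25 to 32, where 8 of 9 tested fell, against 22.1% of all symbols that fell and a median of -0.010. That count depended on the scaling, with 7 of 9 passing with DESeq2 size factors and 5 of 9 with library totals. With library totals 4252 of 11633 symbols rose and 1135 fell. In rats 17 to 24, 0 of 9 passed by edgeR against 2.19% lower, with 3 at an unadjusted p under 0.05 and 2 called by DESeq2. Over all rats 5 of 9 fell, against 12.3%. PPARA, the receptor that drives fatty acid oxidation, was 16.4 ± 7.47 TMM-scaled CPM in KO and 33.2 ± 7.64 in WT rats (SD, n = 8 each), a change of -1.01 (SE 0.26, edgeR adjusted p = 0.0079). HNF4G, a paralog of HNF4A, changed by -0.63 (SE 0.16, adjusted p = 0.0075), and RXRA, the partner of NR1H4 and PPARA, by -0.48 (SE 0.11, adjusted p = 0.0045). By range, PPARA was -0.37 and -1.79, HNF4G -0.10 and -1.14, and RXRA -0.21 and -0.75 in rats 17 to 24 and 25 to 32, with the call in the latter range for all 3. In mice 0 of 11 of this set passed by limma against 0.817% lower, with 2 at an unadjusted p under 0.05, and by edgeR 0 of 11 against 2.85% lower, with 4 at an unadjusted p under 0.05 and 1 called by DESeq2.

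The injury and dedifferentiation set moved the other way. In rats 25 to 32, 13 of 18 tested rose, at a median of 0.73, against 21.8% of all symbols that rose, and 0 fell. In rats 17 to 24, 7 of 17 rose against 5.07%, and over all rats 10 of 17 against 15.2%. ATF3, a stress-induced factor, was 14.8 ± 7.3 TMM-scaled CPM in KO and 3.08 ± 0.76 in WT rats (SD, n = 8 each), a change of 2.26 (SE 0.28, edgeR adjusted p = 2.9e-05). MYC, a growth factor-responsive regulator, changed by 1.91 (SE 0.20, adjusted p = 6.1e-06), and TWIST2, known from mesenchymal cells, by 1.82 (SE 0.44, adjusted p = 0.0054) from a WT mean of 0.252. ATF3 and MYC passed in both ranges, while TWIST2 was 0.37 in rats 17 to 24 (adjusted p = 0.66) and 2.78 in rats 25 to 32 (adjusted p = 0.0003). In mice 3 of 19 rose by limma against 3.5%, namely KLF6, FOXM1 and ATF3, and by edgeR 7 of 17 against 6.06%. FOXM1, which drives cell division genes, was 0.104 ± 0.022 scaled units in KO and 0.0332 ± 0.0060 in WT mice (SD, n = 4 each; limma adjusted p = 0.0146), and 1.65 higher on the reads by edgeR (adjusted p = 0.00013).

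**Figure D4:**
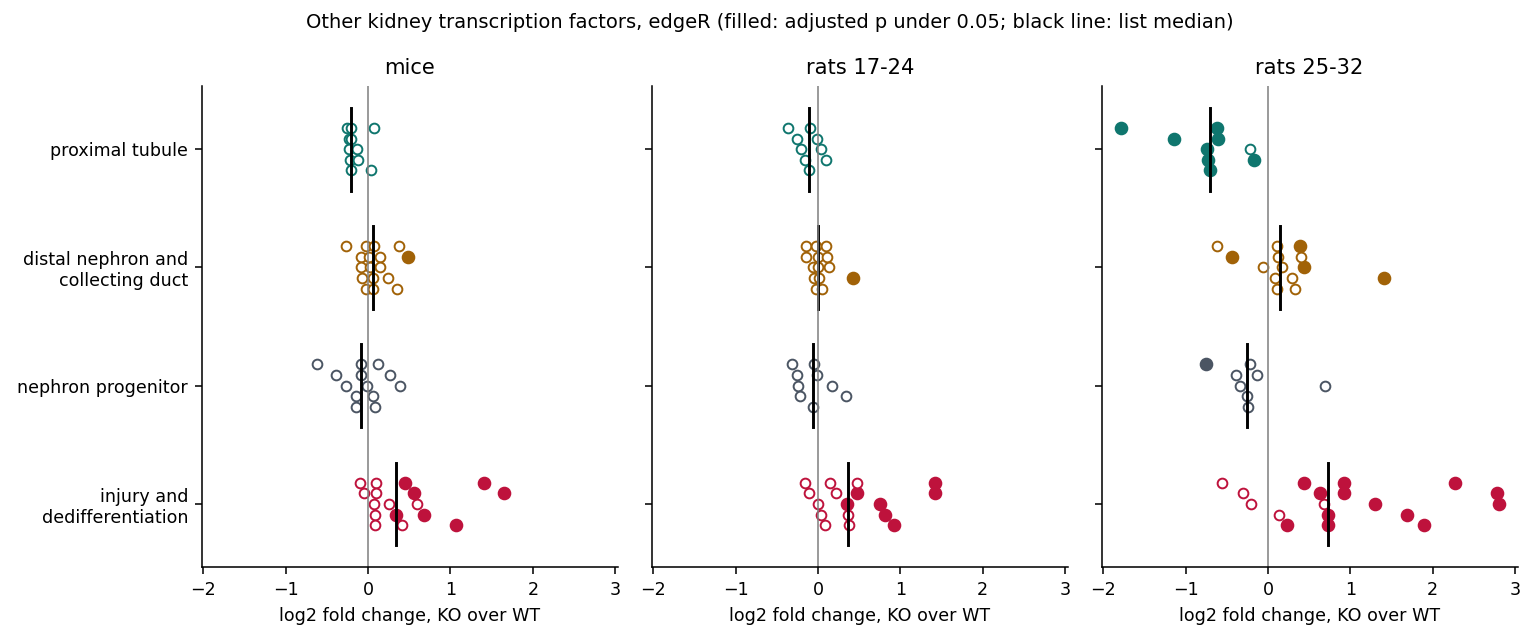
Log2 change by edgeR of 4 sets of other kidney transcription factors (x axis, shared by the 3 panels) in mice, rats 17 to 24 and rats 25 to 32, with filled points past an adjusted p of 0.05 and a black line at the median. In rats 25 to 32 the proximal tubule set has its median at -0.70 and the injury and dedifferentiation set at 0.73.

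Factors of the distal nephron and of nephron progenitors had few calls over all rats without the range in the fit. With the range as a covariate, 3 of 14 distal and 3 of 9 progenitor factors passed. In that fit 2285 of 11703 symbols rose and 2266 fell. Between WT rats of the ranges 11 of 14 distal and 4 of 9 progenitor factors differed, against 21.1% of all symbols. Among 14 distal nephron and collecting duct factors tested over all rats, ELF3, an epithelial ETS factor, passed (0.96, SE 0.14, edgeR adjusted p = 0.00016), against 27.5% of all symbols that passed. There was 1 of 14 in rats 17 to 24, against 7.26%, and 4 of 14 (3 higher and 1 lower) in rats 25 to 32, against 43.8%. In mice 0 of 17 passed by limma against 4.32% of all symbols, with 4 at an unadjusted p under 0.05. By edgeR 1 of 17 passed against 8.91%, and DESeq2 called 2. Among 8 progenitor factors LHX1 was lower over all rats (-0.47, SE 0.16, edgeR adjusted p = 0.0407), where 12.3% of all symbols were lower. LHX1 was -0.26 in rats 17 to 24 (adjusted p = 0.258) and -0.75 in rats 25 to 32 (adjusted p = 0.0057). With library totals in place of TMM, 0 of the 8 passed over all rats, with 2 at an unadjusted p under 0.05. In mice 0 of 15 progenitor factors passed by limma, against the same 4.32%, with 2 at an unadjusted p under 0.05. By edgeR 0 of 13 passed against 8.91%, and DESeq2 called 0 of 14. Of the paralogs of the members, MAFF (limma adjusted p = 0.0285) and SOX8 (0.0230) rose in mice among 33, where 4.32% of all symbols passed, and over all rats MAFF rose by 0.75 (SE 0.15, edgeR adjusted p = 0.0015) and HNF4G fell among 15, where 27.5% passed.

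Genes that carry out proximal tubule work fell beside HNF4A. Over all rats 12 of 18 tested were lower and 0 higher, at a median of -0.46, where 12.3% of all symbols were lower. PCK1, the rate-limiting enzyme of gluconeogenesis, changed by -1.05 (SE 0.22, edgeR adjusted p = 0.0019), the organic anion transporter SLC22A6 by -0.75 (SE 0.22, adjusted p = 0.0169) and the bicarbonate cotransporter SLC4A4 by -0.73 (SE 0.23, adjusted p = 0.0270). These 3 passed in rats 25 to 32, at -1.19, -1.12 and -1.21, and not in rats 17 to 24, at -0.83, -0.15 and -0.37. Of the 18, 14 fell and 1 rose in rats 25 to 32, against 22.1% and 21.8% of all symbols. In rats 17 to 24, 5 of 18 fell, against 2.19%. The sum over the list was 19800 to 25700 TMM-scaled CPM in KO and 27000 to 42600 in WT rats. In mice FBP1, an enzyme of gluconeogenesis, was the 1 of 18 that passed by limma, at -0.38 (SE 0.081, limma adjusted p = 0.0482), against 0.817% lower. By edgeR on the reads 2 of 18 were lower, against 2.85%, and DESeq2 called 5. The sum over the list was 566 to 629 scaled units in KO and 666 to 851 in WT mice. Whether the tubule factors fell with the share of tubule cells or within them was not tested.

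Injured tubule genes rose beside SOX9. Over all rats 8 of 15 were higher, against 15.2% of all symbols. In rats 17 to 24, 7 of 15 were higher against 5.07%, and in rats 25 to 32, 11 of 15 against 21.8%, with 1 lower. In mice 5 of 16 were higher by limma against 3.5%, and 7 of 16 by edgeR on the reads against 6.06%. SPP1, the secreted phosphoprotein osteopontin, rose by 3.59 in rats (SE 0.35, edgeR adjusted p = 2.8e-06) and by 1.03 in mice (SE 0.14, limma adjusted p = 0.0110). LCN2, an injury marker, rose by 3.99 in rats (SE 0.62, adjusted p = 0.00021). HAVCR1 (kidney injury molecule 1) rose by 4.27 (SE 0.51, adjusted p = 2.1e-05), although its deposited rat values were whole reads in 0 of 16 libraries and were rounded. In mice VCAM1 (0.52, limma adjusted p = 0.00090) and AKAP12 (0.43, adjusted p = 0.0085) also rose on the log2(value + 1) scale. On the reads their edgeR changes were 1.40 and 1.09.

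Markers of other cells moved with genotype as well. Of all symbols, 3.5% were higher and 0.817% lower in KO mice by limma. Over all rats 15.2% were higher and 12.3% lower in KO animals. The 9 macrophage markers summed to 4.33 to 5.12 scaled units in KO and 2.91 to 3.05 in WT mice, and to 182 to 502 TMM-scaled CPM in KO and 116 to 209 in WT rats, with 6 of 9 higher in mice and 8 of 9 in rats. The 7 fibroblast markers summed to 6.39 to 7.16 in KO and 3.53 to 4.36 in WT mice, and to 325 to 534 against 258 to 298 in rats, with 4 of 7 higher in mice and 6 of 7 in rats. Of the lymphocyte markers 4 of 5 tested were higher over all rats and 0 of 7 passed in mice by limma, edgeR or DESeq2, with 0 at an unadjusted p under 0.05 by limma and 1 by each of the others. The sums for the 3 thick limb markers measured in rats were 3100 to 4000 in KO and 2400 to 3680 in WT animals, with UMOD at 0.31 (edgeR adjusted p = 0.0449), though -0.013 in rats 17 to 24 and 0.63 in rats 25 to 32, and CLDN10 lower (-0.50, adjusted p = 0.00033). Of these calls 1 of 2 was lost without the filter on low counts. Among principal cell markers SCNN1B was higher in rats (0.34, adjusted p = 0.0074), and among intercalated cell markers SLC26A4 was higher in mice (0.30, limma adjusted p = 0.0490). Podocyte markers gave 0 calls over all rats and in mice by limma, edgeR or DESeq2, with 0 of 6 at an unadjusted p under 0.05, but 3 of 6 over all rats with the range as a covariate. In rats 25 to 32, 2 of 6 were lower by edgeR, where 22.1% of all symbols were, and 4 were called by DESeq2. Endothelial markers gave 0 calls by edgeR over all rats (1 at an unadjusted p under 0.05, 1 called by DESeq2). In mice they gave 0 by limma (2 at an unadjusted p under 0.05), and 2 were lower by edgeR and by DESeq2, against 2.85% of all symbols lower by edgeR. In rats 25 to 32, 2 of 5 were lower, against the same 22.1%. Principal cell markers in that range gave 4 calls of 4, 3 higher and 1 lower, where 43.8% of all symbols passed. Distal convoluted tubule markers gave 0 calls in either species by these tools, with 1 of 3 in mice and 0 in rats at an unadjusted p under 0.05. The part these cells had in the SOX9, SOX4 and MAF values was not tested.

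The symbols whose 3 changes (mice, rats 17 to 24 and rats 25 to 32, edgeR on reads) lay closest to those of a member were found among 9928 symbols by Euclidean distance on the log2 scale. TBC1D16 (distance 0.027) and DHTKD1 (0.0593) were closest to HNF4A. SFXN5 (0.0283) and SLC1A1 (0.0379) were closest to MAF, and SPATA2L (0.0248) and AMACR (0.0331) to NR1H4. VRK2 (0.0105) and BICD1 (0.0249) were closest to PAX8. The closest to SOX9 were the macrophage-rich CD68 at 0.207 and CD84 at 0.234. These distances were not set against how many symbols change by a like amount, so they cannot be compared between members. SOX9 also had few reads.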

How the data were processed

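The authors prepared stranded mRNA libraries from 100 ng of RNA. The submitters' notes name bcl2fastq 2.20, STAR 2.7.3, DESeq2 1.24.0 and R 3.6.1 and the builds mm10 and rn5. The deposited mouse signal was a read count plus 0.5 over the library's 75th percentile, and whole reads were recovered for 99% of values (tolerance 0.01). The deposited rat estimated counts carried a constant offset of 1/6, were whole for 97.7% of values and were rounded.

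Mice were tested with limma 3.58.1 (trend, robust) on log2(value + 1) without a filter. Rats were tested with edgeR 4.0.16 quasi-likelihood (robust, TMM, filterByExpr), over all rats, within each range, and as an interaction. P-values were adjusted by Benjamini-Hochberg over all symbols tested and called under 0.05. They set each difference against the spread between these animals, estimated with the help of the other symbols. Over all rats the main fit had no range term, so that spread also holds the difference between the ranges. Named besides the members were up to 3 symbols per list and direction with the largest called change, NR0B2, SLC51A, SLC51B and each called member's 2 nearest symbols. Some items are not reported here. Alternatives were edgeR or DESeq2 1.42.0 on reads, other filters, pseudocounts and scalings, limma-voom and leaving out each animal. All fits ran in R 4.3.3. The main kinds of test were tried on simulated data, as were edgeR in mice and limma-voom and DESeq2 over all rats. The other scalings, filters and pseudocounts, the range covariate, DESeq2 in mice and edgeR between species were not. Members, lists and comparisons were chosen with earlier results of these data known. Promoters came from RefSeq, which gave 5 windows for 4 members.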

Additional observations from a re-analysis of the deposited data

Results flagged for a closer look

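Among 50 groups of 4 or 8 animals, 2 held an animal far from the rest, where chance gives about 1 in 20. PAX2 in WT rat 19 was 17.5 TMM-scaled CPM against 14.5 to 14.9 in the other WT rats of 17 to 24. MAF in WT rat 27 was 149 TMM-scaled CPM against 74.9 to 108 in the other 7 WT rats. The HNF4A change differed between the rat number ranges, by -0.82 on the log2 scale in the edgeR interaction test, being larger in rats 25 to 32.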

How the results depend on the processing

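With each animal left out in turn, both mouse calls, the 4 calls over all rats, the 5 calls in rats 25 to 32 and the HNF4A difference between ranges were kept in every fit. Counts of members called moved to 1 in mice with a mean value of at least 0.1, since SOX9 fell below that filter. In rats 17 to 24 DESeq2 called 2, and leaving out 1 animal gave 0 to 3. For the difference between ranges DESeq2 called 2 and leaving out 1 animal gave 1 to 2. For WT rats between ranges DESeq2 called 2, library totals in place of TMM called 0 and leaving out 1 animal gave 0 to 2. Of the other transcription factors in mice, limma called 3 of 62 and edgeR on reads 8 of 58. DESeq2 called 10 of 61 and edgeR with library totals 10 of 58. Calls over all symbols moved as well, from 4.32% by limma to 8.91% by edgeR on reads. DESeq2 called 936 higher and 584 lower of 14586, and edgeR with library totals 1355 higher and 130 lower of 13442. The cause of these differences was not tested. The library-total scaling was chosen after seeing the data.

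Directions turned for uncalled values near 0. PAX2 in mice was -0.016 by edgeR and -0.018 by DESeq2, and -0.022 to 0.020 with an animal left out. MAF in mice was -0.21 to 0.030 with an animal left out, the highest without WT mouse 2. With library totals the difference between ranges was 0.0014 for PAX2 and 0.026 for PAX8, and PAX2 in WT rats between ranges was -0.072. Leaving out an animal gave -0.22 to 0.045 for the PAX8 difference between ranges, and -0.0027 to 0.020 for the SOX9 difference between species. Of 762 log2 changes of members under alternatives, 720 kept their direction and call. No paired analysis was made, because the animal numbers do not show which KO and WT animals came from the same litter. Counting error weighs on SOX9, which had 34 to 121 reads in mice and from 30 reads in rats.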
